A study of Mus musculus with 8 samples.

Results

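The transcripts described here are those of Trp53, which encodes the mouse p53 protein, and of 9 genes that p53 is known to activate: Mdm2, Ccng1, Fas, Phlda3, Zmat3, Trp53inp1, Aen, Perp and Plk2. These 10 genes were chosen by name, among the 21879 genes of the deposited expression table. RNA was sequenced from C2C12, a line of mouse myoblasts whose cells leave the cell cycle and fuse into myotubes once serum is lowered. The tested cells were transfected with siFam129b, a small interfering RNA against Fam129b, which encodes a cytoplasmic protein of the Niban family, and the control cells with siNC. There were 4 libraries per group, every sample carries the label of muscle differentiation, and no other agent or allele is named. For every sample the records list 10% fetal bovine serum and 2% horse serum. By its title the study concerns Fam129b in the atrophy of muscle, and here the question is whether depleting it goes with other levels of p53 and of the genes p53 controls. The sources used here give neither the number and sequence of the siRNAs nor the hours in low serum.

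p53 is a transcription factor that is kept scarce by constant degradation and is stabilised when DNA is damaged or cells are stressed. It then activates genes that stop the cell cycle, repair DNA or kill the cell, together with Mdm2, whose protein marks p53 for degradation and so closes a feedback loop. Because p53 is controlled mainly at the level of the protein, the amount of Trp53 mRNA is a poor guide to its activity, and the activity is usually read from the targets. In myoblasts, Cdkn1a, the best known p53 target and an inhibitor of cyclin-dependent kinases, is also induced without p53 when the cells differentiate.

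p53 binds DNA at pairs of a short palindromic half-site, and the stretches that follow are shown because they carry a match to that site. RefSeq promoter windows of build GRCm38.p6, running from 250 bases before to 50 bases after a start, were held for 7 of the 10 genes, and also for Cdkn1a. They were searched for the p53 half-site of 10 bases with no mismatch, which reads the same on both strands, and for 2 adjacent half-sites with at most 1 mismatch in 20 bases. Capitals mark the match, and each stretch of 30 bases reads 5′ to 3′ on the strand of the gene.
Ccng1: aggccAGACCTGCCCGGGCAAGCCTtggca
Cdkn1a: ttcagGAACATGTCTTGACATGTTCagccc
Trp53: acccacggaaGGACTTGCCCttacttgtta
Mdm2: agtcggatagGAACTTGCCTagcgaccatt
Aen: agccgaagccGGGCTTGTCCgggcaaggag
The Ccng1 stretch lies at chr11:40755457-40755486 on the minus strand, where the adjacent pair, with 1 mismatch, begins 195 bases before the start. The Cdkn1a stretch lies at chr17:29090923-29090952 on the plus strand, and its adjacent pair, also with 1 mismatch, begins 51 bases before one annotated start. A further half-site of Cdkn1a, not printed, begins 73 bases before the same start, and the window of the other Cdkn1a start held no match. Trp53 itself has a single half-site at chr11:69580274-69580303 on the plus strand, 75 bases before its start. Mdm2 has a single half-site at chr10:117710925-117710954 on the minus strand, 186 bases before its start; the p53 sites for which Mdm2 is known lie in its first intron, outside this window. Aen has a single half-site at chr7:78895927-78895956 on the plus strand, which begins 121 bases before one annotated start and 10 bases after another.

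A half-site was therefore present in the windows of 4 of the 7 genes, and Fas, Phlda3 and Plk2 held none. Of all 32851 promoter windows, 8.36% held a half-site and 0.0883% an adjacent pair, so the pair in Ccng1 and Cdkn1a is the rarer feature. A match describes letters and was not measured as binding. Many known p53 sites lie in introns or farther upstream, which these windows do not cover.

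The transcript targeted by the siRNA, Fam129b, was reduced in all siFam129b libraries, with no overlap with siNC. It stood at 91.6, 87.0, 87.3 and 128 FPKM (fragments scaled to transcript length and library size) in siFam129b libraries 1 to 4, against 154, 163, 179 and 175 FPKM in siNC libraries 1 to 4. The mean with siFam129b was 58.8% of that with siNC, and the exact two-sided permutation p was 0.0286, the lowest possible over the 70 ways to assign 8 libraries. Of the 4 knockdown libraries, siFam129b library 4 had the highest Fam129b value and stood apart from all others across the table. The values of p53, its tested targets and most of the genes named beside them are therefore also given without it below. All FPKM values of that library summed to 470385, against 391336 to 398292 in the other libraries. The part of this higher sum in its Fam129b value was not tested. Whether cultures were separate within a group is not labelled, and the p-values therefore measure the spread between these libraries, which may be technical. The reads recovered from the table came to between 31466869 and 36031688 per library. All 6 fixed myoblast markers were detected, 2 with a difference above 0 and 4 below, and 0 passed the adjusted threshold. Myod1 lay between 30.4 and 41.3 FPKM with siFam129b and between 26.9 and 38.1 FPKM with siNC, and Myf5 between 4.502 and 12.1 FPKM with siFam129b and between 11.1 and 16.7 FPKM with siNC. The summed level of 5 immune markers was 2.71 to 4.31 FPKM with siFam129b and 2.66 to 3.33 FPKM with siNC, nearly all of it Cd68, with Itgam and Cd3e listed at 0 in all 8 libraries. Of 4 fixed neural markers only Tubb3 reached a mean of 1 FPKM. It lay between 54.6 and 93.7 FPKM with siFam129b and between 53.7 and 66.8 FPKM with siNC. The highest Tubb3 value was that of siFam129b library 4, and its log2 difference was 0.07, or -0.11 without that library. Rbfox3, Gfap and Sox10 reached at most 0.00662, 0.0689 and 0.0102 FPKM with siFam129b, against 0, 0.0430 and 0 FPKM with siNC.

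No gene among p53 and its targets differed between the groups beyond the spread between libraries. Of the 10, 9 had a mean of at least 1 FPKM and entered limma on log2(FPKM + 1) over 11025 genes, and 0 of the 9 had a Benjamini-Hochberg adjusted p under 0.05, where the share over all tested genes was 0%. That fit did not call Fam129b itself, at a log2 difference of -0.78 (limma adjusted p = 0.784, unadjusted p = 0.000198). A reduction of that size could therefore go uncalled, and the count of 0 has to be read with this limit. None of the 9 had an unadjusted p under 0.05, against 2.49% of all tested genes (1.78% higher and 0.707% lower with siFam129b). A voom fit in limma to the reads recovered from the FPKM values gave 0 of the 9 by either measure. In none of the 9 were the 4 siFam129b libraries all above or all below the 4 siNC libraries, a pattern that 3.37% of tested genes showed (1.9% higher and 1.46% lower). The differences were above 0 for 4 genes and below 0 for 5, with a median of -0.05 on the log2 scale, where the median of all tested genes was 0.003. The median size of the difference, without its sign, was 0.09 for the 9 genes and 0.12 for all tested genes.

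**Figure D1:**
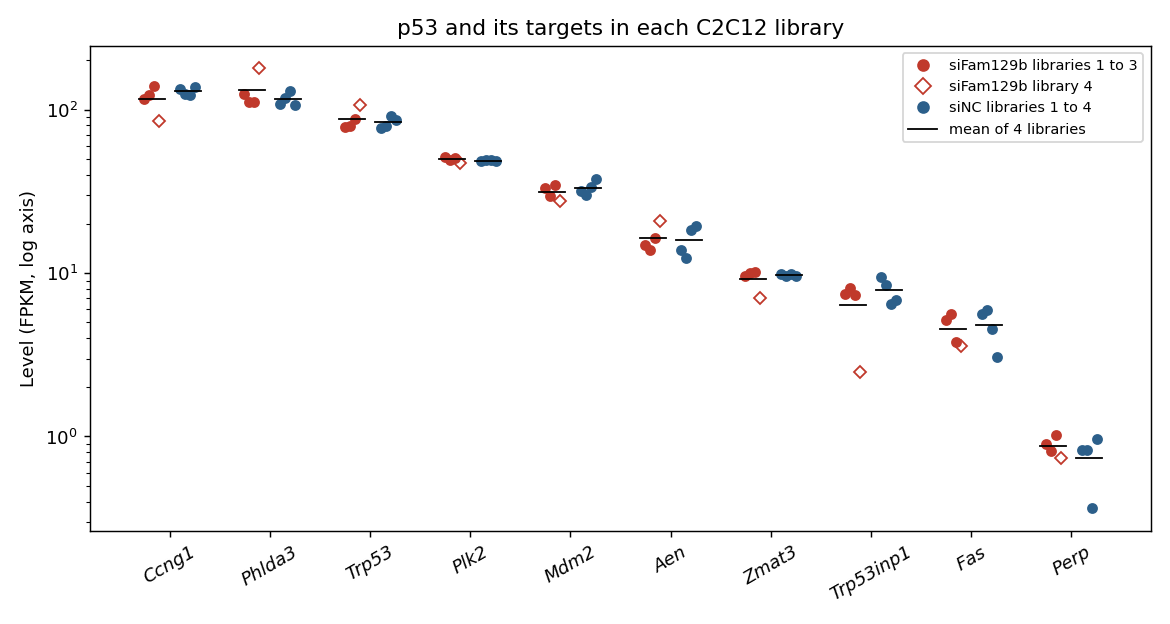
Level of each gene in FPKM on a log axis, with siFam129b libraries in red (library 4 as an open diamond) and siNC libraries in blue, and a line at the mean of 4 libraries. The groups overlap for all 10 genes, and the open diamond of Trp53inp1, at 2.49 FPKM, lies far below the other libraries of that gene.

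The genes spanned a wide range of levels, and FPKM, which is per length, allows them to be set in order. In siNC cells Ccng1 came first and Phlda3 next, at means of 130 and 116 FPKM, and the ranges of this pair overlapped. In siFam129b cells the means of this pair stood in the other order, at 116 FPKM for Ccng1 and 132 FPKM for Phlda3, again with overlapping ranges. After them came Trp53, Plk2, Mdm2, Aen, Zmat3, Trp53inp1, Fas and Perp, in both groups. In siNC cells no other neighbours overlapped. In siFam129b cells Ccng1 also overlapped with Trp53, its next neighbour there, Zmat3 with Trp53inp1, and Trp53inp1 with Fas. These further overlaps rested on siFam129b library 4 and were absent in siFam129b libraries 1 to 3. Without library 4 the siFam129b means of Ccng1 and Phlda3 were 126 and 116 FPKM, in the order of siNC.

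Trp53 was abundant in every library. It stood at 78.1, 79.4, 87.4 and 106 FPKM in siFam129b libraries 1 to 4, against 77.2, 79.3, 91.2 and 87.0 FPKM in siNC libraries 1 to 4. The groups overlapped, and the highest value was that of siFam129b library 4. The log2 difference of Trp53 was 0.06, with a 95% interval from -0.20 to 0.32 (limma adjusted p = 0.858). Without siFam129b library 4 it was -0.03, with an interval from -0.20 to 0.13. RefSeq lists a Trp53 pseudogene in the mouse genome, and how the authors' counting treated reads shared with it is not stated in those sources.

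Mdm2, the ubiquitin ligase that degrades p53, and Ccng1, cyclin G1, which binds a phosphatase that acts on Mdm2, feed back on p53. Mdm2 stood at 33.1, 29.6, 34.5 and 27.6 FPKM in siFam129b libraries 1 to 4, against 31.9, 30.2, 33.7 and 37.4 FPKM in siNC libraries 1 to 4. The highest and the lowest Mdm2 values both came from libraries numbered 4, one of each group, and the groups overlapped. For Mdm2 the log2 difference was -0.09, with a 95% interval from -0.32 to 0.14 (limma adjusted p = 0.790), and it was -0.04 without siFam129b library 4.

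Ccng1 stood at 116, 123, 139 and 85.6 FPKM in siFam129b libraries 1 to 4, against 134, 125, 122 and 137 FPKM in siNC libraries 1 to 4. Libraries 1 to 3 of siFam129b spanned the siNC range, and siFam129b library 4 lay below it, at 66.0% of the siNC mean. The log2 difference of Ccng1 was -0.18, with a 95% interval from -0.50 to 0.13 (limma adjusted p = 0.784), and it was -0.05 without that library.

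Fas, the receptor that starts death signalling at the cell surface, was a low transcript with 126 to 242 reads per library. It stood at 5.20, 5.62, 3.81 and 3.57 FPKM in siFam129b libraries 1 to 4, against 5.59, 5.95, 4.55 and 3.06 FPKM in siNC libraries 1 to 4. In both groups libraries 1 and 2 were higher than libraries 3 and 4, while the siRNA groups overlapped. For Fas the log2 difference was -0.05, with a 95% interval from -0.48 to 0.39 (limma adjusted p = 0.932), and without siFam129b library 4 it was 0.04.

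Aen encodes a nuclease of the nucleus that promotes cell death. It stood at 14.8, 13.8, 16.5 and 20.7 FPKM in siFam129b libraries 1 to 4, against 13.9, 12.4, 18.5 and 19.4 FPKM in siNC libraries 1 to 4. Here libraries 1 and 2 of both groups were lower than libraries 3 and 4, the reverse of Fas. The log2 difference of Aen was 0.04, with a 95% interval from -0.34 to 0.42 (limma adjusted p = 0.933), and without siFam129b library 4 it was -0.07.

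Perp encodes a membrane protein of desmosomes that also takes part in p53-dependent death. It was the only one of the 10 below a mean of 1 FPKM, with 23 to 70 reads per library. Its level was 0.902, 0.813, 1.02 and 0.739 FPKM in siFam129b libraries 1 to 4, against 0.825, 0.824, 0.363 and 0.962 FPKM in siNC libraries 1 to 4. The groups overlapped, and siNC library 3 was the lowest of the 8. In a fit with no filter on low values the log2 difference of Perp was 0.11, with a 95% interval from -0.15 to 0.37 (limma adjusted p = 0.830). Of 8 fixed epithelial markers only Krt14, a keratin, reached a mean of 1 FPKM, with 2.15 to 3.87 FPKM with siFam129b and 1.51 to 1.90 FPKM with siNC (log2 difference 0.42, or 0.28 without siFam129b library 4, limma adjusted p = 0.784 with it). The 8 markers summed to between 2.499 and 4.298 FPKM with siFam129b and between 1.70 and 2.15 FPKM with siNC, Epcam and Esrp1 were at 0, and their part in the Perp values was not tested.

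Phlda3 encodes a small lipid-binding protein that competes with AKT for the membrane. It stood at 125, 112, 111 and 180 FPKM in siFam129b libraries 1 to 4, against 108, 118, 130 and 107 FPKM in siNC libraries 1 to 4. siFam129b library 4 held 155% of the siNC mean, and the other siFam129b libraries lay inside the siNC range. For Phlda3 the log2 difference was 0.16, with a 95% interval from -0.19 to 0.51 (limma adjusted p = 0.784), and it was 0.003 without that library.

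Zmat3, an RNA-binding zinc finger protein, was among the steadiest of these genes in control cells. It stood at 9.55, 9.99, 10.2 and 7.04 FPKM in siFam129b libraries 1 to 4, against 9.90, 9.65, 9.80 and 9.59 FPKM in siNC libraries 1 to 4. Its coefficient of variation in siNC was 1.46%, where the median of all tested genes was 8.31%. For Zmat3 the log2 difference was -0.09, with a 95% interval from -0.35 to 0.18 (limma adjusted p = 0.810), and 0.02 without siFam129b library 4.

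Trp53inp1, a stress-induced partner of p53 that also acts in autophagy, had the widest spread with siFam129b. It stood at 7.43, 8.09, 7.35 and 2.49 FPKM in siFam129b libraries 1 to 4, against 9.48, 8.49, 6.50 and 6.85 FPKM in siNC libraries 1 to 4. The first 3 siFam129b libraries lay inside the siNC range, and library 4 was at 31.8% of the siNC mean, with 442 reads against 1173 to 1768 in the siNC libraries. Its coefficient of variation was 40.8% with siFam129b, or 5.30% without library 4, and 17.9% with siNC, where Fas had 27.1% and Perp 35.3%. For Trp53inp1 the log2 difference was -0.35, with a 95% interval from -0.995 to 0.300 (limma adjusted p = 0.784). Without library 4 it was -0.02, with an interval from -0.29 to 0.25.

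Plk2, a polo-like kinase induced by p53 after damage, was the steadiest. It stood at 51.3, 49.1, 50.9 and 47.2 FPKM in siFam129b libraries 1 to 4, against 48.4, 49.1, 49.4 and 48.2 FPKM in siNC libraries 1 to 4. Its coefficient of variation was 3.84% with siFam129b and 1.24% with siNC, and the medians of all tested genes were 18.2% and 8.31%. For Plk2 the log2 difference was 0.02, with a 95% interval from -0.14 to 0.19 (limma adjusted p = 0.909), the narrowest interval of the 9, and the difference was 0.05 without siFam129b library 4.

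**Figure D2:**
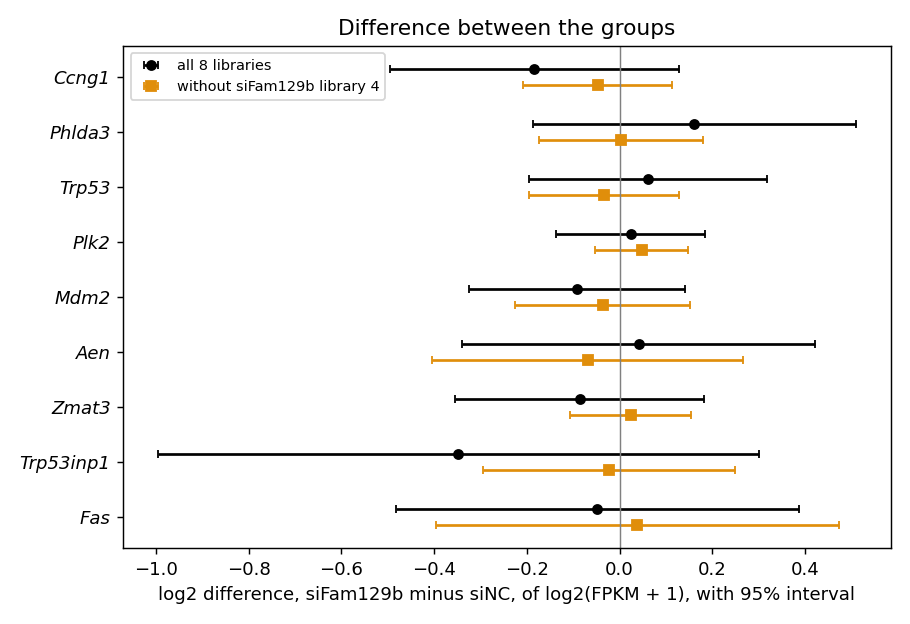
Log2 difference of each tested gene, siFam129b minus siNC, with its 95% interval from limma, for all 8 libraries (black) and without siFam129b library 4 (orange). All intervals include 0, and without that library the 9 differences lie between -0.07 and 0.05.

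With all 8 libraries the 95% intervals are widest for Trp53inp1 and narrowest for Plk2, and each end is a difference that these libraries do not exclude. A p above the threshold does not show that the levels were equal.

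siFam129b library 4 was the highest of the 8 libraries for Trp53, Phlda3 and Aen, and the lowest for Mdm2, Ccng1, Zmat3, Trp53inp1 and Plk2. That is 8 of the 9 tested genes at one end, where the share over all tested genes was 77.6% (39.9% with library 4 highest and 37.7% with it lowest), so the count says nothing particular about p53 and its targets. The FPKM values of library 4 summed to 470385, against 391336 to 398292 in the other 7 libraries. With each library scaled to an equal sum, a comparison added after seeing the data, library 4 was highest for 1 gene, Phlda3, and lowest for 6, Fas and the 5 above. The shares over all tested genes were then 23.6% highest and 50% lowest, 73.6% in all. Trp53 and Aen then lay inside the range of the other libraries.

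Relative to the mean of siFam129b libraries 1 to 3 on the deposited scale, library 4 deviated on the log2 scale by 0.38 for Trp53, 0.44 for Aen and 0.63 for Phlda3. It deviated by -0.10 for Plk2, -0.22 for Mdm2, -0.35 for Fas, -0.44 for Zmat3, -0.55 for Ccng1 and -1.30 for Trp53inp1.

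The deviation of library 4 moved with transcript length and base composition across the table. Tested genes were divided into 4 equal bins. In the shortest bin, with implied lengths up to 1.83 kb, the median deviation was 0.44, and in the longest, from 4.28 kb, it was -0.52. In the bin with the lowest GC content, up to 45.6%, the median was -0.51, and in that with the highest, from 54.8%, it was 0.39. Phlda3, at 1.47 kb and 60.2% GC, had the largest positive deviation of the 9, and Trp53inp1, at 5.42 kb and 39.4% GC, the largest negative one. Fas, the shortest of the 9 at 1.18 kb, with 43.8% GC, deviated by -0.35, away from the median of the shortest bin. Ccng1, at 2.20 kb, has a length near those of Aen, at 2.43 kb, and Trp53, at 1.86 kb, but deviated the other way; its GC content was 39.5%, against 53.3% for Aen and 54.0% for Trp53. The part of length and GC content in the differences of single genes was not tested.

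**Figure D3:**
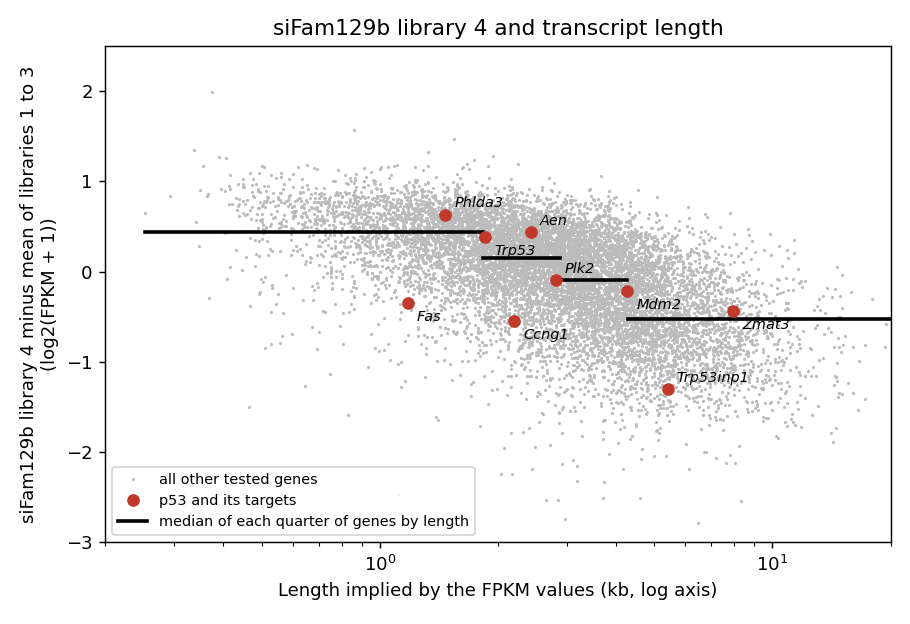
Deviation of siFam129b library 4 from the mean of siFam129b libraries 1 to 3, in log2(FPKM + 1), against the length implied by the FPKM values in kb on a log axis, for all tested genes (grey; a few lie outside the axes) and for p53 and its targets (red). Black lines give the median of each of 4 bins of genes by length, 0.44 in the shortest and -0.52 in the longest, and Trp53, Phlda3, Aen and Zmat3 lie above the line of their own bin.

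For 4 of these genes the libraries separated by replicate number, whichever siRNA they had received. For Fas, the 4 libraries numbered 3 or 4 held 3.06 to 4.55 FPKM, below the 5.20 to 5.95 FPKM of the 4 libraries numbered 1 or 2. Trp53inp1 also lay lower, at 2.49 to 7.35 FPKM in libraries 3 and 4 and 7.43 to 9.48 FPKM in libraries 1 and 2. Trp53 and Aen lay higher: Trp53 at 87.0 to 106 FPKM in libraries 3 and 4 and 77.2 to 79.4 FPKM in libraries 1 and 2, and Aen at 16.5 to 20.7 and 12.4 to 14.8 FPKM.

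The count is 4 of 9 genes, 2 in each direction, where 22.1% of all tested genes showed no overlap between these sets of libraries, 11% higher and 11.1% lower in libraries 3 and 4. The labels name no batch, and the split was known from earlier results of these data, so it is a description. Within libraries 1 and 2 alone, 1 of the 9 genes, Ccng1, had an unadjusted p under 0.05, where the share over all tested genes was 10.3%, with a log2 difference of -0.12 (limma adjusted p = 0.464). Within libraries 3 and 4 alone, which include siFam129b library 4, its difference was -0.24 (limma adjusted p = 0.830), and 0.653% of all tested genes had an unadjusted p under 0.05.

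**Figure D4:**
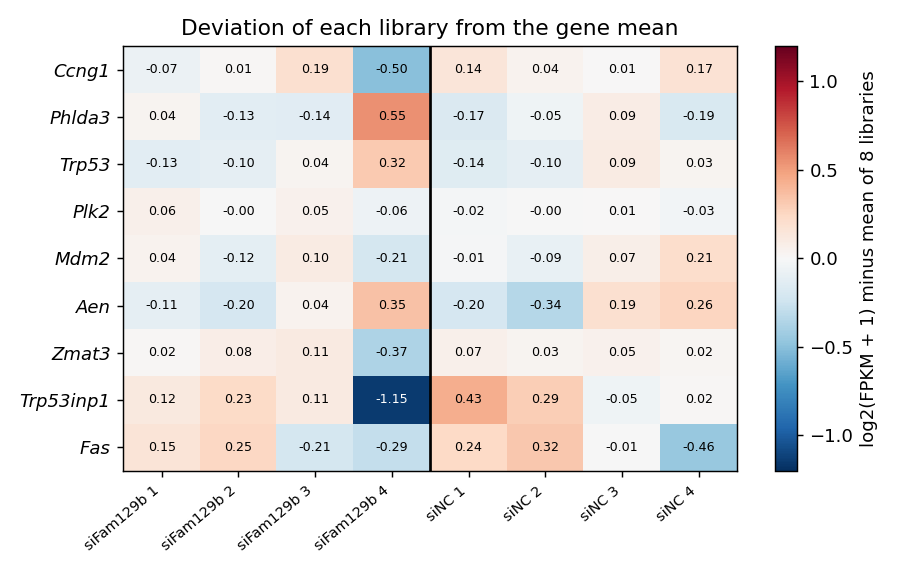
Deviation of each library from the mean of all 8, in log2(FPKM + 1), for the 9 tested genes, with siFam129b libraries left of the line and siNC libraries right of it. The strongest colour is Trp53inp1 in siFam129b library 4, and the Plk2 row is nearly blank.

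Profiles were compared by the root mean square difference of log2(FPKM + 1), each centred on its mean over the 8 libraries. Ccng1 and Zmat3 were each other's nearest gene among the 9, at 0.0901, as were Mdm2 and Plk2 at 0.116 and Trp53 and Aen at 0.13. Phlda3 was nearest to Trp53, at 0.142. Trp53inp1 was farthest from the rest, at 0.292 from Ccng1. The measure is not scaled to the spread of a gene, so steady profiles lie near each other whatever the genes do. Ccng1 and Zmat3 both had their lowest value in siFam129b library 4, as did 37.7% of all tested genes. How common such distances are over all tested genes was not counted. Among all tested genes the 3 nearest to Trp53 were Gpat4 at 0.0196, Ahnak2 at 0.0249 and Galnt10 at 0.0255. Like Trp53, all 3 had their highest value in siFam129b library 4, which follows from their choice by likeness to Trp53. Of all tested genes, 39.9% had their highest value there.

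Around these genes, 54 others of the p53 pathway were examined, 49 of which passed the filter of 1 FPKM. None of the 49 had an adjusted p under 0.05 in limma and 0 had an unadjusted p under 0.05. Differences were above 0 for 20 and below 0 for 29, with a median of -0.02, where 50.6% of all tested genes were above 0. The groups did not overlap for 1 of the 49, Rrm2b, against the 3.37% given above for all tested genes.

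Regulators and relatives of p53 numbered 15, of which 12 were tested, 4 above and 8 below 0, with a median of -0.06. The 3 with the smallest p were Trp53bp2, a p53-binding protein that favours its death targets, at -0.17 ± 0.13 (SE), Ppp1r13b, of the same family, at 0.13 ± 0.11 (SE), and Ppm1d, a phosphatase that p53 induces and that dampens its signalling, at -0.15 ± 0.13 (SE). Without siFam129b library 4 they were at -0.05, 0.11 and -0.04, in that order. Cdkn2a, whose p19Arf product shields p53 from Mdm2, was listed at 0 in all 8 libraries. The p53 relatives Trp63 and Trp73 reached at most 0.128 and 0.0138 FPKM with siFam129b, against 0.0840 and 0 FPKM with siNC.

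The kinases that signal DNA damage to p53 were all below 0, 5 of 5, with a median of -0.23, and none passed the test. Over all tested genes the share above 0 was 50.6%. Atm stood at 4.79, 5.08, 7.25 and 3.504 FPKM in siFam129b libraries 1 to 4, against 5.93, 5.76, 8.39 and 9.53 FPKM in siNC libraries 1 to 4. The groups overlapped for all 5. The log2 difference of Atm was -0.46 ± 0.21 (SE, limma adjusted p = 0.784), of Atr -0.26 ± 0.16 and of Prkdc -0.23 ± 0.15. Without siFam129b library 4 all 5 were also below 0, with a median of -0.11, and Atm was at -0.32, Atr at -0.16 and Prkdc at -0.08. Atm, Prkdc and Atr are long transcripts, at 10.3, 9.83 and 6.64 kb, and library 4 deviated by -0.56, -0.59 and -0.41 for them. The part of length was not tested.

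Cdkn1a, the main arrest target, stood at 110, 100, 91.1 and 133 FPKM in siFam129b libraries 1 to 4, against 115, 115, 96.7 and 90.9 FPKM in siNC libraries 1 to 4. The groups overlapped, and the log2 difference was 0.05 ± 0.13 (SE, limma adjusted p = 0.896), or -0.05 without siFam129b library 4. Of 8 tested arrest targets 5 were above 0 and 3 below, with a median of 0.03. Without siFam129b library 4 there were 3 above and 5 below, with a median of -0.03. Sfn and Rprm had means under 1 FPKM and were not tested. Myog, a marker of myoblasts that enter differentiation, stood at 2.10 to 6.80 FPKM with siFam129b and 4.21 to 14.3 FPKM with siNC. Those groups overlapped, with a log2 difference of -0.98 ± 0.42 (SE, limma adjusted p = 0.784, unadjusted p = 0.0432), or -0.81 without siFam129b library 4, and its part in the Cdkn1a values was not tested.

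Of 6 repair targets 1 was above 0 and 5 were below, with a median of -0.06. Without siFam129b library 4 there were 3 above and 3 below, with a median of -0.009. Rrm2b, a subunit of the ribonucleotide reductase used outside S phase, stood at 7.75, 7.34, 7.65 and 2.00 FPKM in siFam129b libraries 1 to 4, against 8.31, 8.36, 7.96 and 8.56 FPKM in siNC libraries 1 to 4. All 4 siFam129b values of Rrm2b lay below all 4 siNC values, and its log2 difference was -0.49 ± 0.31 (SE, limma adjusted p = 0.784) with library 4 and -0.12 without it.

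Of 9 death targets 6 were above 0 and 3 below, with a median of 0.11, and without siFam129b library 4 there were 4 above and 5 below, with a median of -0.01. Bax, which permeabilises mitochondria, stood at 39.8, 40.6, 45.7 and 84.1 FPKM in siFam129b libraries 1 to 4, against 36.0, 41.6, 51.5 and 47.5 FPKM in siNC libraries 1 to 4. Pmaip1, the BH3-only protein Noxa, went the other way in library 4, with 8.19, 8.02, 7.32 and 3.34 FPKM in siFam129b libraries 1 to 4 and 9.24, 7.90, 6.11 and 7.40 FPKM in siNC libraries 1 to 4. The log2 differences of Bax and Pmaip1 were 0.19 ± 0.23 and -0.22 ± 0.24 (SE), and that of Bbc3, the BH3-only protein Puma, 0.14 ± 0.17. Without siFam129b library 4 all 3 changed sign, to -0.06 for Bax, 0.04 for Pmaip1 and -0.01 for Bbc3.

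Of 9 targets in metabolism and secretion 4 were above 0 and 5 below, with a median of -0.00013. Ephx1, an epoxide hydrolase, had a log2 difference of 0.24 ± 0.11 (SE) and Dcxr, a carbonyl reductase, 0.21 ± 0.12 (SE), or 0.18 and 0.12 without siFam129b library 4. Ddit4, a stress-induced inhibitor of mTORC1, stood at 73.2, 61.2, 47.4 and 61.2 FPKM in siFam129b libraries 1 to 4, against 61.2, 59.4, 48.4 and 38.7 FPKM in siNC libraries 1 to 4. The groups overlapped, with siFam129b library 1 the highest and siNC library 4 the lowest, and the log2 difference was 0.23 ± 0.17 (SE, limma adjusted p = 0.784), or 0.22 without siFam129b library 4.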

How the data were processed

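The authors deposited 1 table of FPKM values, 1 per gene and library; the submitters' processing notes list build mm9; aligner, counter and annotation: not given in the sources used here. Columns were matched to siFam129b and siNC samples by letter and replicate number in the titles; the descriptions of the siFam129b samples carry another code, so these columns rest on the titles alone. For 16478 of the 16479 genes with a value, the FPKM values were ratios of whole reads within 0.001 of a read; these reads gave totals, which are lower bounds, and implied lengths. GC content came from GENCODE M21 transcripts. Levels were converted to log2(FPKM + 1), genes whose mean fell under 1 FPKM were left out, and siFam129b was tested against siNC with limma 3.58.1 in R 4.3.3, with a trended prior, two-sided, with Benjamini-Hochberg adjustment over all of them and a threshold of 0.05; this scale understates differences of low genes. The fit was also tested on simulated data. Those were drawn with no library apart and no split by replicate number, so that test does not cover these features. Besides the main fit, 20 others were run. No 2 libraries of a group agreed within sampling noise (lowest chi-square per gene 5.58, where sampling gives about 1). The 10 genes and all lists were chosen with earlier results of these data known. Genes named beside them were Cdkn1a, Bax, Bbc3, Pmaip1, the 3 of each pathway list with the smallest p at most, and the nearest profiles; Trp63, Trp73, Cdkn2a, Sfn and Rprm were named after their values were seen. 1 item of the fixed lists is not reported here and was left out of the list counts.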

Additional observations from a re-analysis of the deposited data

Results flagged for a closer look

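The 33 genes examined were p53 and its targets, Fam129b, Cdkn1a, Bax, Bbc3, Pmaip1 and the 3 of smallest p in each pathway list. Not all of them are described above. Each group's 4 libraries were examined for 1 value far from the other 3, which chance gives in about 1 of 20 groups. Of 66 groups 7 held such a value, and all 7 were siFam129b library 4. That library was the highest or lowest of the 8 for 77.6% of all tested genes, so the flags say nothing particular about this pathway. The share of all tested genes flagged in this way was not counted. Rrm2b, Polk, Apaf1 and Siva1 were named because their p was among the 3 smallest of their list. Library 4 was low at 2.49 FPKM for Trp53inp1, 2.00 FPKM for Rrm2b, 3.70 FPKM for Polk and 3.56 FPKM for Apaf1. It was high at 84.1 FPKM for Bax, 76.1 FPKM for Siva1 and 128 FPKM for Fam129b. The implied lengths of the low ones ran from 3.93 kb for Rrm2b to 6.53 kb for Apaf1; Bax and Siva1 were at 1.75 and 0.686 kb and Fam129b at 3.70 kb. No siNC library was apart in this way.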

How the results depend on the processing

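None of p53 and its tested targets passed the threshold in any of the 20 other fits (smallest adjusted p 0.464, Ccng1 in replicates 1 and 2 alone), and 0 were called throughout. Over all genes, 0 were called in the main fit, 1 after quantile normalization, 2 with array weights, 10 in replicates 1 and 2 alone, 5 in a fit that leaves out siFam129b library 4 and has a covariate for replicate numbers 1 and 2 or 3 and 4 (added to the planned fits after seeing the data), and between 0 and 1 with 1 library left out. Fam129b, at -0.78 in the main fit, passed after quantile normalization (-0.86), with array weights (-0.89), in replicates 1 and 2 alone (-0.82), with that added fit (-0.90) and, over the fits with 1 library left out, which spanned -0.91 to -0.73, without siFam129b library 4. Of 179 values of single genes, 23 changed sign, all small. With an equal sum per library these were Trp53 (-0.00513), Aen (-0.0221) and Plk2 (-0.0417); after quantile normalization Plk2 (-0.00784); with array weights Trp53 (-0.0344), Fas (0.0470), Phlda3 (-0.0115), Zmat3 (0.0192) and Aen (-0.0417); in replicates 1 and 2 alone Mdm2 (0.0118) and in 3 and 4 alone Aen (-0.0330); in the added fit Trp53 (-0.00589), Zmat3 (0.0270) and Aen (-0.00568). With 1 library left out, the ranges were -0.0343 to 0.11 for Trp53, -0.21 to 0.04996 for Fas, -0.14 to 0.0242 for Zmat3 and -0.0683 to 0.14 for Aen. The cause was not tested. Perp was tested without the filter alone. Same-numbered libraries of the groups deviated from their group means with correlations of 0.53, 0.25, 0.04 and 0.12. The siFam129b mean includes library 4, which stood apart, so these values do not decide whether the numbers pair the samples. With a replicate block 0 genes were called, as without, and Trp53inp1 was at -0.35. siFam129b library 1 and siNC library 1 correlated best with each other, while siFam129b library 2 correlated better with siNC library 1, at 0.47, than with its own number.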
